A study of Mus musculus with 6 samples.

Results

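The genes described here are 9 genes of mitochondrial and cytosolic heme synthesis: the enzymes Alas1, Alad, Uros, Urod, Cpox, Ppox and Fech, and the mitoferrins Slc25a37 and Slc25a28, which carry iron into mitochondria. They were taken by symbol from a table of 39179 genes, and all 9 were found and passed the filter on low values, so they are 9 of the 12980 genes tested. RNA sequencing was done on endothelial cells sorted from livers of wild-type male 129S6/SvEvTac mice that were put on a purified diet at 3 weeks of age and sampled at 7 weeks, after 4 weeks of feeding. Food of the control_iron group contained ferric citrate at 37 ppm iron and that of the high_iron group carbonyl iron at 10000 ppm, with 3 biological replicates in each group. Whether a replicate is a single mouse or a pool is not given in the labels. The sort took cells positive for the endothelial proteins CD146 and CD31 and negative for CD64, MHC class II, CD45 and lineage markers.

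Heme is made in steps that begin and end in the mitochondrion. ALAS joins glycine and succinyl-CoA to 5-aminolevulinate, which cytosolic enzymes assemble into a porphyrin ring, and the ring returns to the mitochondrion to be oxidised and given its iron by ferrochelatase. Alas1 is the form of ALAS made in most tissues and is known to be held down by heme, whereas Alas2 belongs to red cell precursors. Slc25a37 encodes mitoferrin-1, the form that red cell precursors depend on, and Slc25a28 encodes mitoferrin-2, made in many tissues.

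None of the 9 genes passed an adjusted p of 0.05 between the diets in limma, where 1.02% of all genes tested did. Levels are in CPM, the reads assigned to a gene divided by the scaled size of its library. Slc25a37, Fech and Alas1 had the largest positive values, with log2 fold changes of 0.70, 0.66 and 0.59, and the other 6 lay between -0.18 and 0.20. The median over the 9 was 0.17, beside -0.003 over all genes tested. At an unadjusted p under 0.05 the same fit holds 3 of the 9, all with higher means on the high-iron diet. In that direction 7.3% of all genes passed that level, and in either direction 1572 of the 12980 genes did. By edgeR 0 of the 9 passed (0.924% of all genes) and by DESeq2 1 did, Slc25a37 (3.27% of all genes). For 3 of the 9, Alas1, Uros and Slc25a37, every high_iron library lay above every control_iron library. Such a gap in that direction occurred in 9.46% of all genes tested, and in either direction in 17.9%.

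**Figure D1:**
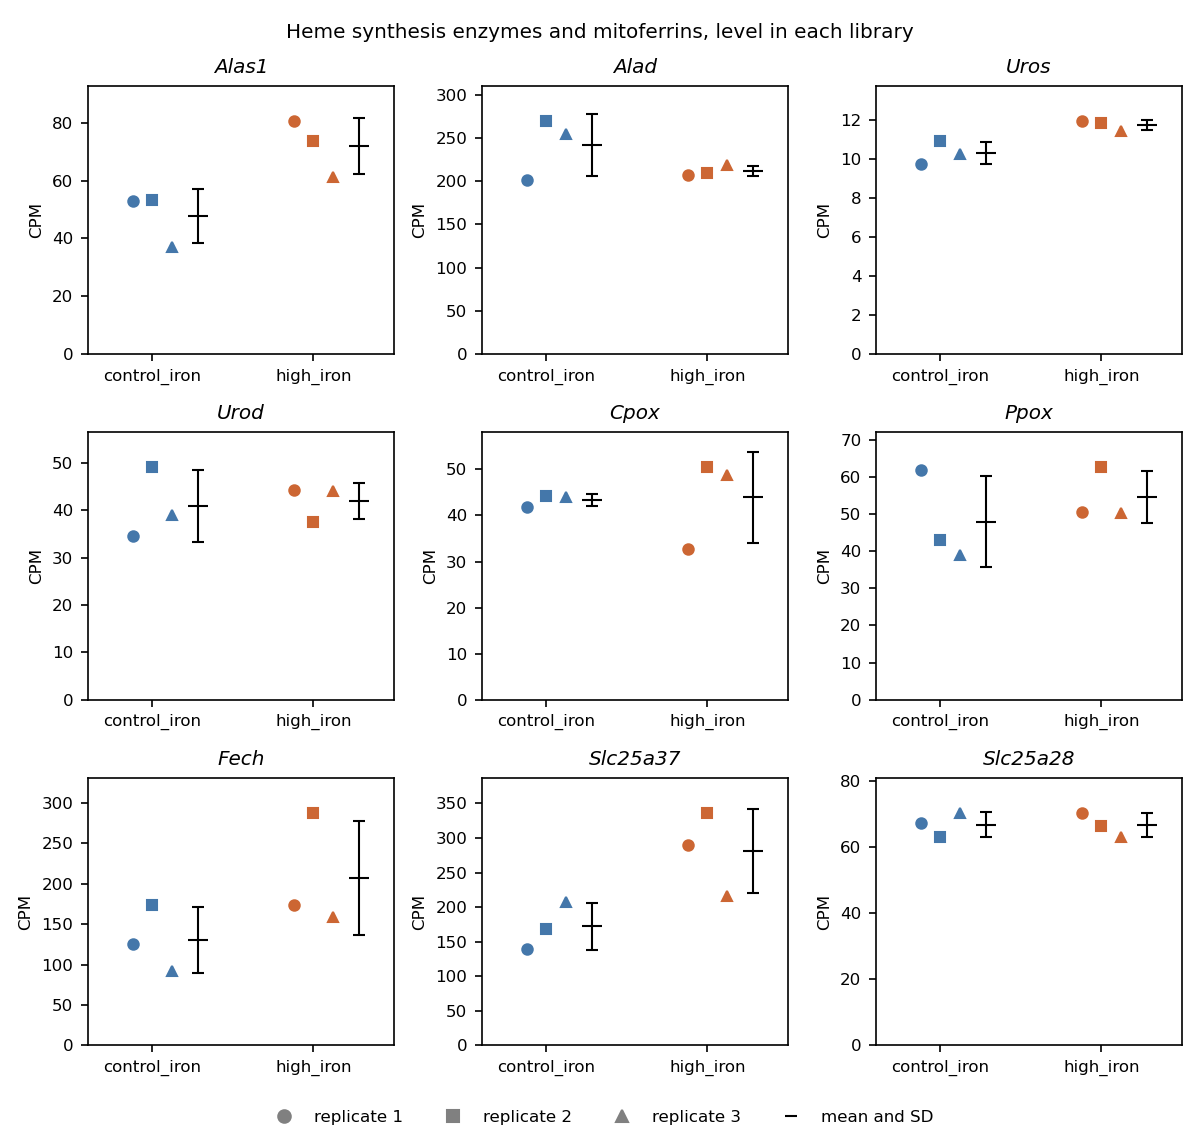
Level of each of the 9 genes in CPM in the 6 libraries, control_iron in blue and high_iron in orange, with symbols for replicates and a black bar for the mean and SD of 3 libraries. The groups are apart for Alas1, Uros and Slc25a37 and overlap for the other 6 genes, and Fech is highest in replicate 2 of either group.

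Alas1 encodes the enzyme of the first, limiting step. In GENCODE M21 (GRCm38, the same build as mm10) the gene spans bases 106233455 to 106248654 of chromosome 9, minus strand, and its exons merge into 11. Its level was 52.9, 53.5 and 37.1 CPM in control_iron replicates 1 to 3 and 80.7, 73.9 and 61.4 CPM in high_iron replicates 1 to 3. The lowest high_iron library thus lay above the highest control_iron library, by less than the range within either group. The log2 fold change was 0.59 ± 0.18 (± SE, on the log2(CPM + 1) scale), or 1.51-fold with a 95% interval of 1.14 to 1.99. It did not pass (adjusted p = 0.21 in limma with Benjamini-Hochberg adjustment over all genes, 0.23 in edgeR and 0.081 in DESeq2). In sorted cells measured in bulk, more RNA per cell and more cells that carry the RNA cannot be told apart.

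Promoter windows of 300 bases, from 250 before to 50 after a start site, were found in RefSeq on GRCm38.p6 for 7 of the 9 genes; Fech and Slc25a37 had no entry. NRF1, a factor known for nuclear genes of mitochondrial proteins, binds a palindrome of 10 letters, and of the 7 genes only Alas1 held it, where 0.971% of the 32851 windows of all genes do (searched on both strands, like the other motifs). In Alas1 the match begins at position 29 from the upstream start site, which is position -195 from the downstream one, within chr9:106247906-106247935 on the minus strand. Cpox, the second window of Uros, and Alas2 held letters of a GATA element (AGATAA or TGATAA, found in 11.2% and 9.05% of windows). Urod and both windows of Alad held the E-box CACGTG, as did the first window of Uros, against 7.15% of windows. Sites are shown for both forms of the first enzyme and for 1 match in each of Cpox, Urod and Alad. Capitals mark the match, and each is read 5′ to 3′ on the strand of its gene.
Alas1, NRF1 palindrome: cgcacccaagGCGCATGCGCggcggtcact
Cpox, GATA letters on the other strand, chr16:58670112-58670137: agcgcctatcTTATCAgtccaagcac
Alas2, GATA letters on the other strand, chrX:150547321-150547346: actttgctttTTATCTttagcagagg
Urod, E-box, chr4:116994447-116994472: ctggatcggtCACGTGgttctcaata
Alad, E-box, chr4:62519922-62519947: gccccgccccCACGTGggcttgcgct
The antioxidant response element was searched as TGACNNNGC and TGAGNNNGC, on both strands. The first form was found in none of the members' windows and in 12.4% of all windows. The second was found in Uros and Cpox and in 17.6% of all windows. A GC box, GGGCGG, was found in Alas1, Alad, Uros, Urod, Ppox and Slc25a28, in Alas2 as well, and in 35.7% of all windows. A match describes letters in the window and is no measurement of binding. Transcripts of Nrf1 were at 40.7 to 59.4 CPM in control_iron and 47.3 to 60.0 CPM in high_iron libraries (log2 fold change 0.20, adjusted p = 0.67 in limma). Those of Gata1, the red cell GATA factor, were at or under 1.30 CPM in every library.

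The 3 cytosolic enzymes among the 9 lay close to their control levels. Alad, which condenses 2 molecules of 5-aminolevulinate into porphobilinogen and needs zinc, was at 202, 270.1 and 255 CPM in control_iron and at 207, 210.2 and 219 CPM in high_iron libraries. The high_iron libraries were close together (SD 6.09 CPM, against 36.0 CPM in controls) and lay inside the control range. Its log2 fold change was -0.18 ± 0.14 (adjusted p = 0.62 in limma), with a 95% interval of 0.709-fold to 1.10-fold.

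Uros, uroporphyrinogen III synthase, closes the ring in its natural form. It was at 9.77, 10.9 and 10.3 CPM in control_iron and 12.0, 11.8 and 11.5 CPM in high_iron libraries. The groups were apart, by a small step: the fold was 1.13 with a 95% interval of 0.859 to 1.48 (adjusted p = 0.70 in limma). Its lowest library held 149 reads of Uros, the fewest of any of the 9 genes.

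Urod, which trims the side chains of uroporphyrinogen, was at 34.5, 49.2 and 39.1 CPM in control_iron and 44.3, 37.5 and 44.1 CPM in high_iron libraries. The groups overlapped fully, with a fold of 1.03 and a 95% interval of 0.795 to 1.34 (adjusted p = 0.93 in limma).

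Cpox and Ppox, the mitochondrial enzymes that oxidise coproporphyrinogen and then protoporphyrinogen, did not pass. Cpox was at 41.8, 44.3 and 44.0 CPM in control_iron and 32.6, 50.6 and 48.7 CPM in high_iron libraries. The controls were tight (SD 1.36 CPM) and the high_iron libraries fell on both sides of them, so the mean moved by less than the spread (95% interval 0.752-fold to 1.32-fold, adjusted p = 0.995 in limma). Ppox was at 61.9, 43.1 and 39.0 CPM in control_iron and 50.7, 62.8 and 50.4 CPM in high_iron libraries. Control_iron replicate 1 came close to the highest high_iron library, and the log2 fold change was 0.20 ± 0.19 (adjusted p = 0.68 in limma). The exons of B4galt3, on the opposite strand, cover 17.5% of the exon length of Ppox, and the library kit does not mark strand, so reads from the shared part cannot be assigned to either gene.

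Fech encodes ferrochelatase, which places iron in protoporphyrin, the last step. It was at 126, 174 and 92.1 CPM in control_iron and 174, 288 and 159 CPM in high_iron libraries. High_iron replicate 3 lay below control_iron replicate 2, so the groups overlapped, and the log2 fold change of 0.66 ± 0.27 did not pass (adjusted p = 0.37 in limma, 0.39 in edgeR and 0.21 in DESeq2). The 95% interval was 1.04-fold to 2.38-fold. Fech was highest in replicate 2 of either group, and markers of red cell precursors were highest in the same libraries. The summed level of 4 hemoglobin genes was 1078, 3600.4 and 1439.6 CPM in control_iron and 1166, 4366 and 771 CPM in high_iron libraries. Alas2 was at 81.0, 189 and 26.4 CPM in control_iron and 71.6, 364 and 60.0 CPM in high_iron libraries. With replicate 2 of both groups left out, a choice made after seeing the data, the log2 fold change of Fech was 0.62. The adjusted p was 0.51 in limma on 2 libraries against 2. In those 4 libraries the groups of Fech no longer overlapped, as was so for 35.9% of all genes tested. Hemoglobin genes still summed to 771 to 1439.6 CPM there, and the part of red cell RNA in the Fech values was not tested.

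**Figure D2:**
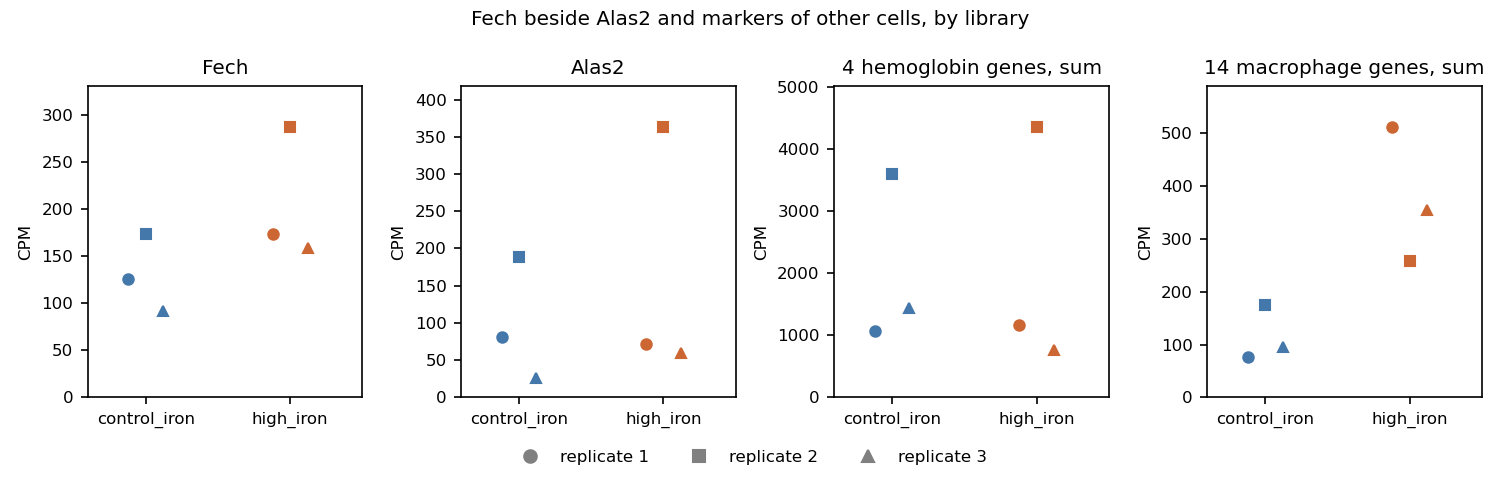
CPM of Fech, of Alas2, of 4 hemoglobin genes summed and of 14 macrophage genes summed, in each library, with symbols for replicates. Fech, Alas2 and hemoglobin are highest in replicate 2 of either group, at 3600.4 and 4366 CPM for hemoglobin, while the macrophage sum separates the groups.

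The mitoferrin gene Slc25a37 lies on chromosome 14 from 69241848 to 69285112, and Slc25a28 on chromosome 19 from 43663801 to 43674881, both on the minus strand of GRCm38. Slc25a37 was at 139, 169 and 208 CPM in control_iron and 289, 337 and 216 CPM in high_iron libraries. The groups were apart, though high_iron replicate 3 exceeded control_iron replicate 3 only narrowly. The log2 fold change was 0.70 ± 0.20, or 1.62-fold with a 95% interval of 1.20 to 2.20. It did not pass in limma (adjusted p = 0.17) or edgeR (0.19), and passed in DESeq2 (0.038). By unadjusted p it stood at rank 426 of the 12980 genes, the foremost of the 9. Slc25a28 was at 67.2, 63.1 and 70.4 CPM in control_iron and 70.5, 66.4 and 63.3 CPM in high_iron libraries. The groups overlapped fully, and the fold was 0.998 with a 95% interval of 0.819 to 1.22 (adjusted p = 0.99 in limma).

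The ratio of Slc25a37 to Slc25a28, each per length by the deposited gene lengths, was 0.329, 0.425 and 0.468 in control_iron and 0.650, 0.805 and 0.542 in high_iron libraries. All 3 high_iron values lay above all 3 control values, with means of 0.407 ± 0.0714 and 0.666 ± 0.132 (SD, n = 3 per group). The two-sided exact permutation p was 0.10, the smallest that 3 libraries against 3 can give, and 0.15 adjusted over the 3 ratios computed. The ratio of Alas1 to Alad, the first enzyme to the second, was likewise apart, at 0.0806 ± 0.0234 and 0.136 ± 0.0221 (exact permutation p = 0.10, adjusted 0.15, n = 3 per group). That of Fech to Alas2 was 1.66 ± 1.12 and 1.64 ± 0.851 and overlapped (exact permutation p = 1, n = 3 per group). Gene length cancels when a ratio is compared between groups. Each ratio reuses values given above, so none is separate support for a change of Slc25a37, Alas1 or Fech.

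**Figure D3:**
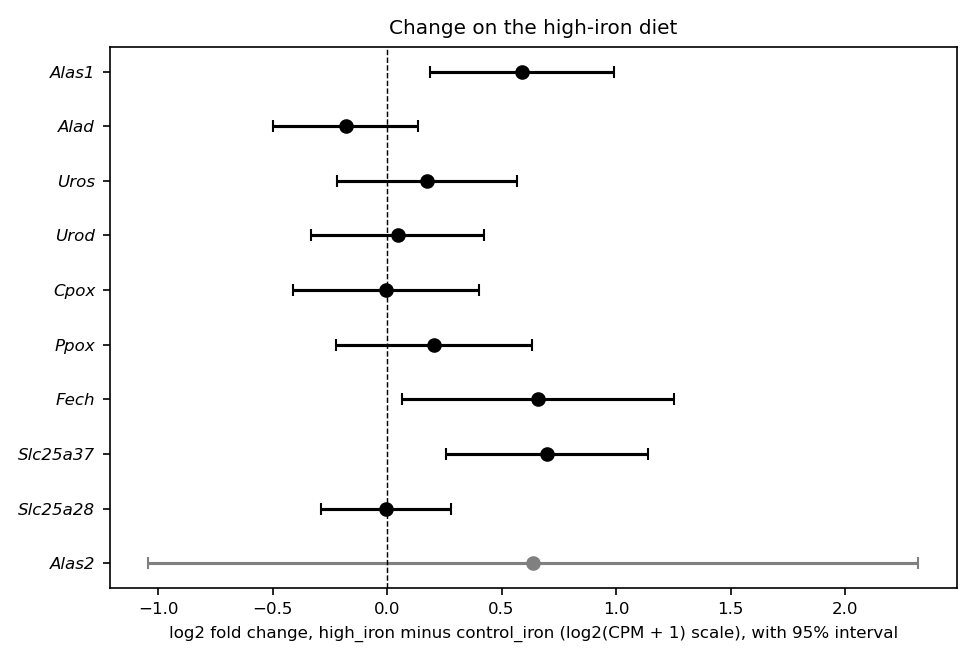
Log2 fold change of the 9 genes (black) and of Alas2 (grey), high_iron minus control_iron on the log2(CPM + 1) scale, with the 95% interval from limma before adjustment over genes. The intervals of Alas1, Fech and Slc25a37 lie above 0 and those of the other 6 members include 0, and Alas2 has the widest interval.

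Levels of different genes can be set side by side only per length, as RPKM (CPM per 1000 bases). With the deposited lengths the control_iron order was Alad at 130.3 ± 19.4 RPKM (SD, n = 3), then Fech at 45.2 ± 14.2, Slc25a28 at 44.3 ± 2.43, Slc25a37 at 18.1 ± 3.61, Urod at 15.2 ± 2.80, Cpox at 13.6 ± 0.428, Ppox at 10.7 ± 2.71, Alas1 at 10.3 ± 1.99 and Uros at 2.38 ± 0.133. Alad lay above Fech and Slc25a28 above Slc25a37 in all 6 libraries, and Alas1 above Uros likewise. Of these neighbours the control libraries of Fech and Slc25a28 overlapped, as did those from Slc25a37 down to Alas1 taken in turn. Alad, the second enzyme, thus had the highest level per length and Uros the lowest, with both diets in the same place.

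The middle of that order rests on the length assigned to each gene. Merged exons of GENCODE M21 come to 13838 bases for Fech, 3749 for Slc25a28 and 6021 for Slc25a37, where the deposited lengths are 2890, 1510 and 9519 bases. With merged exon lengths Slc25a37 was at 28.6 ± 5.71 and Slc25a28 at 17.8 ± 0.981 per 1000 bases in control_iron libraries, so the order of the mitoferrins turned. Fech moved from second to 6th place, at 9.44 ± 2.97, while Alad stayed first and Uros last. Which transcripts these cells make was not measured, so no order is given for the mitoferrins.

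**Figure D4:**
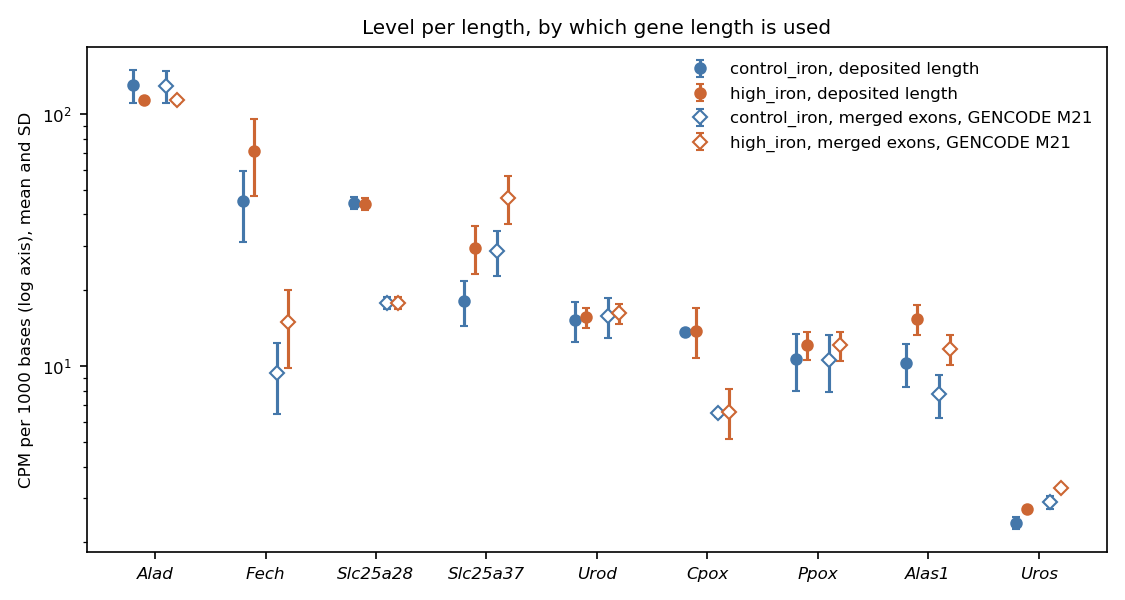
CPM per 1000 bases of the 9 genes on a log axis, mean and SD of 3 libraries, for control_iron (blue) and high_iron (orange), with the deposited gene length (filled circles) or the merged exon length of GENCODE M21 (open diamonds). Alad is highest and Uros lowest under both lengths, and Slc25a37 and Slc25a28 change places.

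The red cell form of the first enzyme did not pass either. The log2 fold change of Alas2 was 0.64 ± 0.75 (adjusted p = 0.74 in limma), and its highest library in either group was also the highest in hemoglobin.

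Of 71 other tested genes of the pathway lists 3 passed in limma, all higher on the high-iron diet. Among 4 breakdown genes Hmox1 and Blvrb rose, by 2.97 and 0.99 on the log2 scale (adjusted p = 3.3e-04 and 0.034 in limma), and of 6 tested genes of heme export and handling Slc48a1, which moves heme out of lysosomes, rose by 1.35 and was also the sole call of edgeR and of DESeq2. At an unadjusted p under 0.05 in limma, in either direction, the export list held 4 of the 6. Over all genes tested 1572 of 12980 reached that level, a share to be read beside the counts of the other lists. Of the 4, Abcc5 (0.73 on the log2 scale), Slc46a1 (0.62) and Abcg2, a porphyrin and drug exporter (-0.62), did not pass (adjusted p = 0.30, 0.23 and 0.27 in limma). Hmox1 passed with any 1 library left out, Slc48a1 in all such fits but that without high_iron replicate 3 (adjusted p = 0.051 in limma), and Blvrb only in that without control_iron replicate 1 (adjusted p up to 0.19 in the others). Of 17 tested partners of heme synthesis 0 passed in limma, with 1 at an unadjusted p under 0.05 and 0 called by edgeR or DESeq2. These are genes of ALAS turnover and of porphyrin, glycine, succinyl-CoA and glutathione supply, with a median log2 fold change of 0.10. The most abundant were Slc25a39, the mitochondrial glutathione carrier (log2 fold change 0.18, adjusted p = 0.69), and Pgrmc1, which binds ferrochelatase (0.16, adjusted p = 0.68).

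Users of heme and of mitochondrial iron were measured too. Of 15 tested genes of heme proteins 0 passed in limma (2 at an unadjusted p under 0.05, 0 in edgeR, 1 in DESeq2), with a median of 0.03. The gene that DESeq2 called was Cat, the heme enzyme catalase, at 169, 218 and 163 CPM in control_iron and 236, 339.6 and 332 CPM in high_iron libraries. Its groups were apart, with a log2 fold change of 0.71 (adjusted p = 0.12 in limma, 0.14 in edgeR and 0.01 in DESeq2). Ptgs1, cyclooxygenase-1, and Cyb5a, cytochrome b5, were the most abundant, with log2 fold changes of 0.10 and 0.53 (adjusted p = 0.75 and 0.18). Of 6 genes of heme A synthesis and cytochrome c maturation 0 passed (1 at an unadjusted p under 0.05, 0 in edgeR and DESeq2). Cox15, a heme A synthase, was at 0.15 on the log2 scale (adjusted p = 0.67), and Fdx1, a ferredoxin, at -0.59 (adjusted p = 0.37). Of 11 genes that build iron-sulfur clusters, the other use of iron carried by mitoferrins, 0 passed in limma, at an unadjusted p under 0.05, in edgeR or in DESeq2. Their median was -0.13, with Hspa9, a mitochondrial chaperone, at 0.35 (adjusted p = 0.42) and Glrx5, a glutaredoxin, at 0.12 (adjusted p = 0.76).

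Of 11 tested regulators of Alas1 and of heme genes, 0 passed in limma (1 at an unadjusted p under 0.05, 0 in edgeR and DESeq2), with a median of 0.17. Nfe2l2, which encodes NRF2, was at 0.17 on the log2 scale (adjusted p = 0.58). Foxo1, a factor that activates Alas1 in fasted liver, was at 206, 208 and 247 CPM in control_iron and 171, 156 and 159 CPM in high_iron libraries, so the groups were apart, with a log2 fold change of -0.44 (adjusted p = 0.19).

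The 4 genes whose pattern over the 6 libraries was most like that of Slc25a37, the gene with the smallest p of the 9, were Usp54, 2510009E07Rik, Lrrc32 and Nrip1. Likeness was the root-mean-square difference of centred log2(CPM + 1) values, 0.09 for Usp54 and 0.17 for Nrip1, among 10199 genes with a mean of at least 5 CPM. None of the 4 passed, with adjusted p between 0.085 and 0.34 in limma.

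Depth was 12963510 to 21663543 reads in genes per library, lowest in high_iron replicate 3, and 3 reads correspond to at most 0.231 CPM. Endothelial markers were abundant, with a summed level of 10 genes of 15564 to 18319 CPM in control_iron and 15170 to 16677 CPM in high_iron libraries. Of these 10 genes 2 had positive log2 fold changes (median -0.19), with 0 called by limma or edgeR and 1 by DESeq2 (Lyve1, higher). Mcam, which encodes the sorting marker CD146, was low. It was at 10.9 to 27.5 CPM in control_iron and 7.49 to 11.5 CPM in high_iron libraries (log2 fold change -0.91, adjusted p = 0.28 in limma). Markers of other cells were present as well. The sum of 14 macrophage genes was 75.9 to 175 CPM in control_iron and 258 to 513 CPM in high_iron libraries. All 13 tested genes were positive and at an unadjusted p under 0.05 in limma, a level and direction of 7.3% of all genes. The groups of 11 were apart with high_iron higher, against 9.46% of all genes. DESeq2 called 9 of the 13 (3.27% of all genes), edgeR 2 (0.924%) and limma 3 (1.02%). Those of limma were Clec4f, Csf1r and Marco. Csf1r lost its call without high_iron replicate 3 (adjusted p = 0.051 in limma), and Clec4f and Marco without control_iron replicate 3 or any high_iron library (up to 0.18 and 0.14). Slc25a37 was highest in high_iron replicate 2, where the macrophage sum was lowest of that group. Alas1 was highest in high_iron replicate 1, where the macrophage sum was highest. Within high_iron, Slc25a37 had the order of the hemoglobin sum (1166, 4366 and 771 CPM). In control_iron it did not, with Slc25a37 highest in replicate 3 and hemoglobin in replicate 2. Without replicate 2 of both groups, chosen after seeing the data, the log2 fold change of Slc25a37 was 0.55 (adjusted p = 0.74 in limma). The part of macrophage or red cell RNA in these values was not tested. The sum of 12 hepatocyte genes was 272 to 1261 CPM in control_iron and 637 to 1278 CPM in high_iron libraries, with 0 of 12 called by limma or edgeR, 3 at an unadjusted p under 0.05 and 1 called by DESeq2. All 12 had positive log2 fold changes (median 0.59), and the part of hepatocyte RNA in the members' values was not tested. Stellate cell genes summed to 147 to 1124 and 238 to 1061 CPM, with Col1a1 and Acta2 under 1 CPM throughout, and platelet genes to 15.7 to 28.2 and 16.5 to 21.8 CPM.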

How the data were processed

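The authors deposited a table named CPM, a normalized signal made by dividing reads per gene by a scaled library size, and an RPKM table that equals 1000 × CPM / gene length within 8.0e-11. STAR, HTSeq, edgeR and mm10 are named per the submitters' processing notes; no source used here gives their versions, the annotation release or how reads were counted. The deposited length column is in bases. All 114253 values above 0 were whole multiples of 1 read within 0.001 read (100%), so reads were recovered, and TMM factors from them matched the deposited scaling within 6.7e-16.

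Genes with at least 1 CPM in at least 3 libraries (12980) were tested on log2(CPM + 1) with limma 3.58.1 in R 4.3.3 (group as sole term, variance trend, two-sided, 95% intervals unadjusted, Benjamini-Hochberg threshold 0.05). On the recovered reads, edgeR 4.0.16 called 120 genes and DESeq2 1.42.0 called 424, against 133 in limma. Other alternatives were pseudocounts, filters, scalings, no trend, a replicate block and leaving out libraries. The procedure was also run on simulated data whose changes were larger than those of the members, and the outcome is not reported here.

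The members, lists and tests were chosen with earlier results of these data known. Named genes were the members, genes of each list that passed or else its 2 most abundant, and the 4 most alike; Nrf1, Gata1, Mcam, Nr1d1, Nr1d2, Ppargc1a, Abcb6, Abcc5, Abcg2, Slc46a1 and Cat were added after their values were seen. Atp5if1 and Ahsp were not matched, and 1 listed gene is not reported here. Positions and exons are from GENCODE M21 (GRCm38, which is mm10). BLAST+ 2.17.0 found no transcript of another gene that covered at least 50% of a member at 95% identity.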

Additional observations from a re-analysis of the deposited data

How the results depend on the processing

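Of the 9 members, 0 passed under 8 of the 10 settings other than leaving out a library, and with any single library left out; the exceptions were 1 in DESeq2 (Slc25a37, log2 fold change 0.71, adjusted p = 0.038) and 1 with the replicate block (Fech, 0.66, adjusted p = 0.036). The log2 fold changes ran from 0.42 to 0.70 for Alas1, 0.40 to 0.89 for Fech and 0.56 to 0.87 for Slc25a37 with 1 library left out. Values near 0 changed sign: Cpox was at 0.0051 and Slc25a28 at 0.0055 with centring on the library median, and Cpox at 0.0205 in edgeR and 0.0215 in DESeq2. With 1 library left out Cpox ran from -0.115 to 0.193, Slc25a28 from -0.0447 to 0.0336 and Urod from -0.0671 to 0.183. Members whose groups did not overlap numbered 3 to 5 with 1 library left out (23.2% to 39.1% of all genes tested; 5 without control_iron replicate 1, where the share was 39.1%) and 5 without replicate 2 of both groups (35.9%), an alternative chosen after seeing the data. Over all genes 133 were called, 34 with no filter, 74 without the trend, 402 with the replicate block, 424 in DESeq2, 24 without replicate 2 of both groups (fewer samples), and 27 to 183 with 1 library left out, falling to 88, 53, 55, 43 and 27 without control_iron replicates 2 and 3 and high_iron replicates 1, 2 and 3 in turn. Replicate numbers are shared by label only: deviations of same-numbered libraries correlated at 0.13, 0.32 and 0.06, and control_iron replicate 3 correlated best with high_iron replicate 1 (0.20). The cause of these shifts was not tested. The 95% intervals are not adjusted over genes: those of Alas1, Fech and Slc25a37 lie above 0, and none of the 3 passed in limma.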

Other observations

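Within each diet Alas1 was lowest in replicate 3, at 37.1 and 61.4 CPM, as were Fech (92.1 and 159 CPM) and Ppox (39.0 and 50.4 CPM). For Ppox the next high_iron library was close, at 50.7 CPM. No other member was lowest in replicate 3 of both diets. Slc25a37 (208 CPM) and Slc25a28 (70.4 CPM) were highest in control_iron replicate 3, and Alad (219 CPM) in high_iron replicate 3. Nr1d1 and Nr1d2 were also lowest in replicate 3 of each diet. They are clock genes whose proteins bind heme, and Nr1d1 is known to repress Alas1 through PGC-1alpha. Nr1d1 was at 78.1, 118 and 41.6 CPM in control_iron and 91.3, 84.4 and 12.8 CPM in high_iron libraries, and Nr1d2 at 35.3, 49.2 and 24.8 CPM and 63.3, 36.5 and 12.8 CPM. Neither passed between diets (adjusted p = 0.71 and 0.91 in limma). The hour of sampling is not given in the labels, and a link of these clock genes to the level of Alas1 was not tested. Ppargc1a, which encodes PGC-1alpha, was at 0.0519 to 1.07 CPM and was not tested.

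Abcb6, a mitochondrial porphyrin transporter, was at 12.4, 4.69 and 6.32 CPM in control_iron and 10.6, 19.0 and 15.5 CPM in high_iron libraries. Its log2 fold change of 0.92 was the largest of the 17 partner genes and did not pass (adjusted p = 0.30 in limma, unadjusted p = 0.019), and control_iron replicate 1 lay inside the high_iron range.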
